A study of Rattus norvegicus with 12 samples.

Results

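The monocarboxylate transporter family comprises the Slc16a genes, whose proteins carry small carboxylates and related solutes across cell membranes. The genes described here were 9 listed members of the family, taken from the probe sets that the array annotation assigns to a single gene symbol. Of the 9, 7 had such a probe set, 1 each, and were measured among 14506 genes: Slc16a1, Slc16a3, Slc16a6, Slc16a7, Slc16a10, Slc16a11 and Slc16a13. Slc16a9 and Slc16a12 had no probe set under their own single symbol and are not analysed here. Slc16a6 was chosen by its measured log2 levels, which were higher at 300 than at 640 mOsm/kg on these arrays, so its changes are given as a description with no test. The other 6 genes were taken as its family.

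The RNA came from primary cultures of the epithelium that lines the collecting ducts of the renal inner medulla (IMCD cells), taken from male Sprague-Dawley rats 7 weeks old. All cultures were first kept for 4 days in medium of 640 mOsm/kg. The 4 groups were then 48 h at 300 mOsm/kg, 48 h at 640 mOsm/kg, 24 h at 300 mOsm/kg and 24 h at 640 mOsm/kg, with 3 samples each and 1 Affymetrix Rat Gene 1.0 ST array per sample. Whether the samples of a group were separate cultures or animals is not stated, so every p-value refers to the spread among these arrays and may reflect technical spread alone.

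The proteins of Slc16a1 (MCT1), Slc16a7 (MCT2) and Slc16a3 (MCT4) move lactate, pyruvate and ketone bodies together with a proton, and they need a single-span glycoprotein, basigin or embigin, to reach the membrane. The protein of Slc16a10 (TAT1) carries aromatic amino acids without a proton. That of Slc16a6, which RefSeq lists under the synonym MCT 7, is known from zebrafish liver as an exporter of the ketone body 3-hydroxybutyrate. The renal inner medulla is poor in oxygen and makes much of its energy by glycolysis, with lactate as an end product.

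The deposited log2 values did not share a scale between arrays. The array medians lay between 5.80 and 5.92 at 48 h and between 5.98 and 6.42 at 24 h, with replicate 1 at 300 and replicate 3 at 640 the lowest of that time. Arrays were therefore quantile-normalized before any comparison, and every level below is a quantile-normalized log2 intensity unless it is called deposited. Aqp2, the vasopressin-regulated water channel that marks principal cells, fell at 300 at both times (log2 change -4.33 at 48 h, limma adjusted p = 1.15e-05, and -3.72 at 24 h, adjusted p = 0.000125). Over all genes, limma called 0.524% higher and 1.38% lower at 48 h, and 0.276% higher and 0.393% lower at 24 h, at an adjusted p under 0.05. Of 10 principal cell markers, 3 were called lower at 48 h (Aqp2, Aqp3 and Avpr2) and 2 at 24 h (Aqp2 and Avpr2). No marker of the 10 was called higher, and 2 had a positive change at 48 h and 1 at 24 h. The mean log2 level of the 10 lay between 7.33 and 7.57 at 300 and between 8.45 and 8.51 at 640 after 48 h. After 24 h it lay between 7.19 and 7.68 at 300 and between 8.09 and 8.29 at 640. Of 7 inner medullary collecting duct markers, Slc14a2, Aqp2 and Avpr2 were called lower at 48 h, and Aqp2 and Avpr2 at 24 h. The epithelial genes Krt8, Krt18 and Cdh1 of that list had positive, uncalled changes at both times. Epcam, also epithelial, had group means of 12.33 at 300 and 12.34 at 640 after 48 h, and 12.24 and 12.31 after 24 h. The median log2 change of the 7 was -0.01 at 48 h and -0.07 at 24 h. Among markers of other cells, Slc12a1 and Aqp1, which mark the loop of Henle (Aqp1 the proximal tubule too), fell at both times. Slc12a1 had group means of 4.91 at 300 and 6.10 at 640 after 48 h, and 5.51 and 6.46 after 24 h. Aqp1 had 9.17 and 11.56 after 48 h, and 8.98 and 11.06 after 24 h. They were the 2 of 6 limb markers called lower at each time. The mean log2 level of those 6 lay between 6.05 and 6.30 at 300 and between 6.76 and 7.10 at 640 after 48 h, and between 6.01 and 6.35 at 300 and between 6.79 and 7.08 at 640 after 24 h. Of 7 macrophage and leukocyte markers, C1qa rose and Csf1r fell at 48 h, when the mean level of the 7 lay between 6.38 and 6.72 at 300 and between 6.65 and 6.90 at 640. No other marker of these cells passed between osmolalities. None of 6 endothelial or 7 fibroblast markers passed the test between osmolalities. All 6 endothelial markers were nevertheless lower at 300 after 48 h. Their mean level then lay between 6.12 and 6.46 at 300 and between 6.58 and 7.03 at 640, without overlap. After 24 h it lay between 5.91 and 6.46 at 300 and between 6.32 and 6.88 at 640. For the 7 fibroblast markers the mean levels at 300 and 640 overlapped at both times. The part of these cells in the levels of the transporter genes was not tested, and fewer cells of a type and less RNA per cell cannot be told apart in such cultures.

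Slc16a6 was higher at 300 than at 640 at both times, with the larger difference at 24 h. At 48 h its log2 level was 5.83, 5.74 and 5.90 on the 3 arrays at 300, against 5.02, 5.30 and 5.09 on the 3 arrays at 640. At 24 h it was 6.26, 6.50 and 6.48 at 300, against 4.98, 5.35 and 5.05 at 640. The arrays of the 2 osmolalities did not overlap at either time, which is what the gene was chosen for. Of all genes, 7.15% had all 3 arrays at 300 above the 3 at 640 after 48 h and 4.46% after 24 h.

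The group means of Slc16a6 were 5.82 ± 0.0809 at 300 and 5.14 ± 0.145 at 640 after 48 h (SD, n = 3 each), a log2 difference of 0.68 or 1.61-fold. They were 6.41 ± 0.131 at 300 and 5.12 ± 0.195 at 640 after 24 h, a log2 difference of 1.29 or 2.44-fold. Of all 14506 genes, 99.1% had a lower value of this difference at 48 h and 99.9% at 24 h. In order of level the groups ran 300 at 24 h, 300 at 48 h, 640 at 48 h and 640 at 24 h. The last 2 differed by 0.01, less than the SD of either, while the 3 arrays at 300 after 48 h all lay below the 3 at 300 after 24 h, with a difference between the means of -0.59. The difference between osmolalities was thus 0.60 smaller at 48 h than at 24 h. On the deposited values the differences between osmolalities were 0.70 at 48 h and 1.29 at 24 h, and the arrays were again apart. Leaving out any 1 of the 12 arrays gave 0.63 to 0.77 at 48 h and 1.22 to 1.40 at 24 h, and 1.33 without the 2 arrays of low median. The spread of Slc16a6 within groups was small, with a residual SD of 0.144 against a median of 0.228 over all genes. Its mean level stood at percentile 34.8 of all genes. Slc16a7, Slc16a10 and Slc16a11 stood at 35.4, 36.9 and 36.9, and Slc16a3 at 93. Of the group means of Slc16a6, only that at 300 after 24 h lay above 6.05, the median over all probe sets of an array. Whether Slc16a6 at 640, or Slc16a7, Slc16a10 and Slc16a11, stood above background was not tested. Any effect of background on their changes was not tested either.

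**Figure D1:**
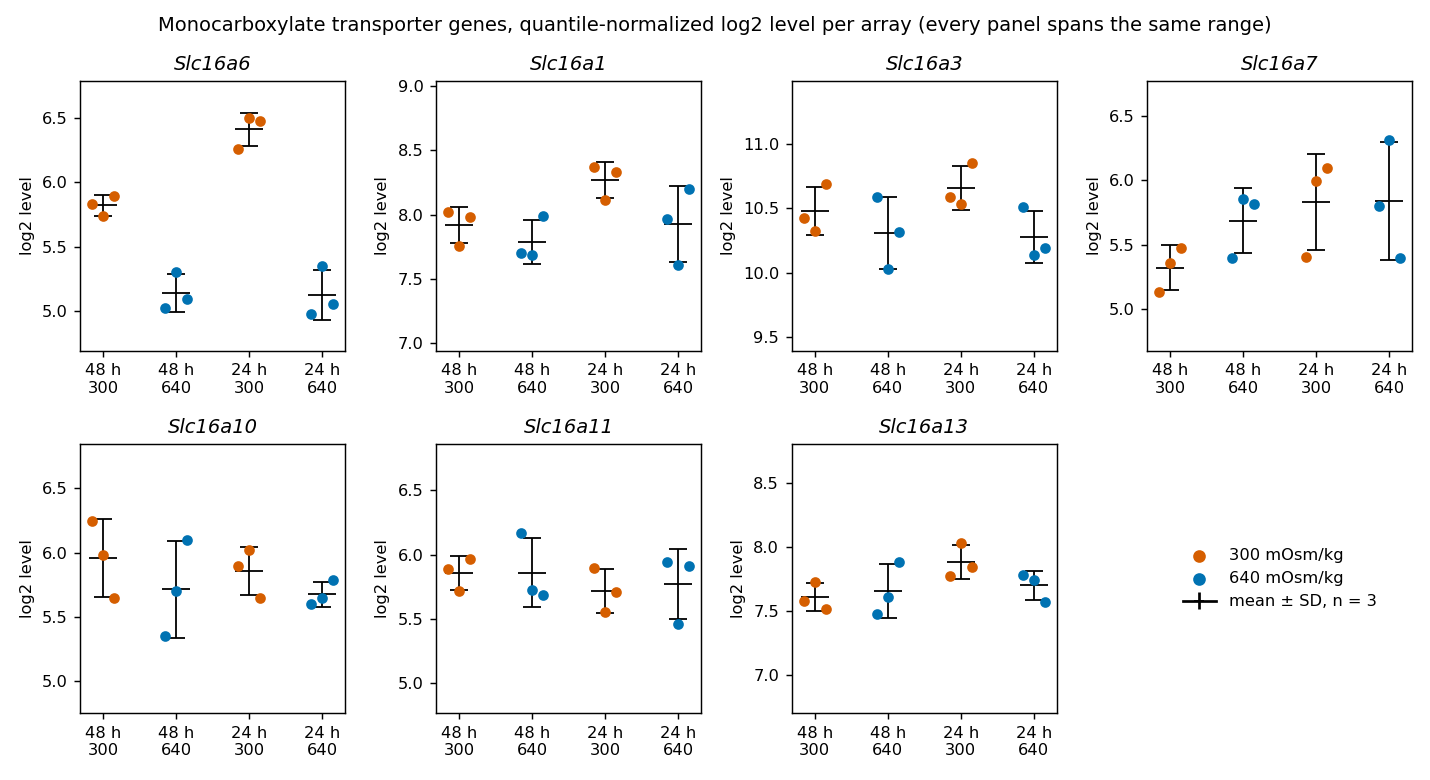
Quantile-normalized log2 level of the 7 measured family genes on each of the 12 arrays (points), with the mean and SD of each group of 3 (bars); the vertical axes differ in position but span the same range. Only for Slc16a6, which was chosen for its higher level at 300 mOsm/kg, were the 3 arrays at 300 mOsm/kg above the 3 at 640 mOsm/kg at both times.

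Slc16a1 and Slc16a3, both lactate carriers, had higher mean levels at 300 than at 640 at both times, but neither passed the test. Slc16a3, the carrier known for lactate export from glycolytic cells, had log2 levels of 10.43, 10.32 and 10.69 at 300 and 10.59, 10.03 and 10.32 at 640 after 48 h. After 24 h it had 10.59, 10.53 and 10.86 at 300 and 10.51, 10.14 and 10.19 at 640, so that the lowest array at 300 stood just above the highest at 640. The log2 change of Slc16a3 was 0.17 ± 0.178 SE at 48 h (95% interval -0.21 to 0.55, limma adjusted p = 1) and 0.38 ± 0.178 SE at 24 h (unadjusted p = 0.0498, adjusted p = 0.825 over all genes). Slc16a3 was the 1 gene of the 6 other than Slc16a6 whose arrays at 300 and 640 did not overlap at 24 h, and at 48 h there was none. Of all genes, the arrays did not overlap for 4.46% higher and 5.4% lower at 24 h, and for 7.15% higher and 7.85% lower at 48 h, so a count of 1 or 0 among 6 genes is near that background.

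Slc16a1, the most widely expressed lactate and ketone body carrier of mammalian tissues, had log2 levels of 8.02, 7.76 and 7.98 at 300 and 7.70, 7.68 and 7.99 at 640 after 48 h. After 24 h it had 8.37, 8.11 and 8.33 at 300 and 7.97, 7.61 and 8.20 at 640. The groups overlapped at both times, through the highest array at 640. The log2 change was 0.13 ± 0.171 SE at 48 h (95% interval -0.23 to 0.50, limma adjusted p = 1) and 0.35 ± 0.171 SE at 24 h (95% interval -0.02 to 0.71, adjusted p = 0.886).

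Slc16a7, the high-affinity carrier for lactate and pyruvate, had the highest residual SD of the 7 listed genes measured, 0.335. Its log2 levels were 5.13, 5.36 and 5.48 at 300 and 5.39, 5.86 and 5.82 at 640 after 48 h. After 24 h they were 5.40, 5.99 and 6.10 at 300 and 5.80, 6.32 and 5.40 at 640. Its lowest array in each group at 24 h was the array with the low deposited median, replicate 1 at 300 and replicate 3 at 640. The log2 change was -0.37 ± 0.239 SE at 48 h (95% interval -0.88 to 0.15, limma adjusted p = 0.888) and -0.01 ± 0.239 SE at 24 h (95% interval -0.52 to 0.50, adjusted p = 1).

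Slc16a10, the aromatic amino acid carrier, had log2 levels of 6.25, 5.98 and 5.64 at 300 and 5.35, 5.70 and 6.10 at 640 after 48 h, with the widest range of the 7 genes in the group at 640. After 24 h it had 5.89, 6.02 and 5.65 at 300 and 5.60, 5.65 and 5.78 at 640. The log2 change was 0.24 ± 0.202 SE at 48 h (95% interval -0.19 to 0.68) and 0.18 ± 0.202 SE at 24 h (95% interval -0.26 to 0.61), with limma adjusted p = 1 at each time.

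Slc16a11 and Slc16a13 are neighbours whose annotated spans overlap in RefSeq, so their probe sets may share signal and are uncertain for that reason. Slc16a11, whose human counterpart is known from genetic studies of type 2 diabetes, had group means of 5.86 ± 0.129 at 300 and 5.86 ± 0.269 at 640 after 48 h (SD, n = 3 each), and 5.72 ± 0.172 at 300 and 5.77 ± 0.270 at 640 after 24 h. Its 95% intervals for the log2 change were -0.39 to 0.38 at 48 h and -0.44 to 0.33 at 24 h. Slc16a13 had 7.61 ± 0.108 at 300 and 7.66 ± 0.209 at 640 after 48 h, and 7.88 ± 0.133 at 300 and 7.70 ± 0.110 at 640 after 24 h. Its intervals were -0.37 to 0.27 and -0.13 to 0.50. Both genes had limma adjusted p = 1 at both times, and their groups overlapped.

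**Figure D2:**
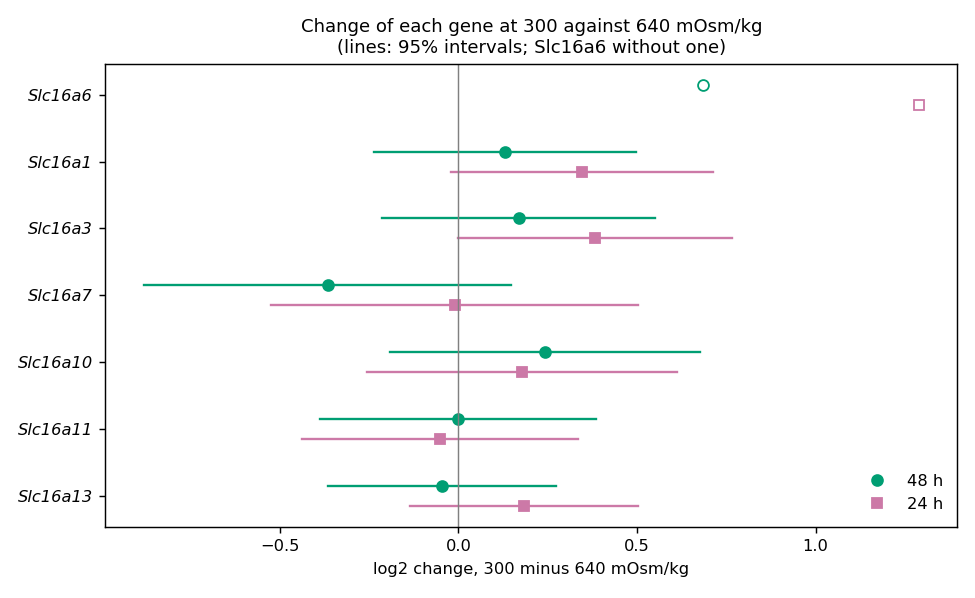
Log2 change at 300 against 640 mOsm/kg for each measured family gene at 48 h (circles) and 24 h (squares), with 95% intervals from limma as lines; open symbols mark Slc16a6, which was chosen for this difference and has no interval. The points of the other 6 genes lie between -0.37 and 0.24 at 48 h and between -0.05 and 0.38 at 24 h.

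Of the 6 genes other than Slc16a6, limma at an adjusted p under 0.05 over all genes called 0 at 48 h and 0 at 24 h, with 0 and 1 at an unadjusted p under 0.05. Of all genes, 1.9% were called at 48 h, 0.524% (76 genes) that rose and 1.38% (200 genes) that fell. At 24 h 0.669% were called, 0.276% (40 genes) that rose and 0.393% (57 genes) that fell. On the deposited values the split at 24 h was 2 that rose and 11 that fell. The median log2 change of the 6 was 0.07 at 48 h and 0.18 at 24 h, against -0.00 and -0.02 over all genes. The smallest change of any called gene was 0.55 at 48 h and 0.65 at 24 h in absolute value. On simulated data with the residual SD of each gene, 62% of log2 changes of 1 were recovered at 48 h and 52% at 24 h, but only 14% and 4% of changes of 0.5. The simulation had 200 changed genes and independent noise on each array. Deviations shared between arrays of the 2 osmolalities were not simulated, so these rates may not hold for the real arrays. The highest upper limit among the 95% intervals of the 6 genes was 0.68 at 48 h, for Slc16a10, and 0.76 at 24 h, for Slc16a3.

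Time was compared at each osmolality. The 48 h and 24 h arrays differ in their deposited scale, and a difference in handling between the 2 times cannot be told apart from time itself. At 300, the 3 arrays at 48 h lay below the 3 at 24 h for Slc16a1 (log2 change -0.35 ± 0.171 SE, limma adjusted p = 0.603) and for Slc16a13 (-0.27 ± 0.149 SE, adjusted p = 0.661), as they did for 6.4% of all genes. Slc16a7 had -0.51 ± 0.239 SE (adjusted p = 0.589) with overlapping arrays. None of the 6 genes was called at 300, where 0.255% of all genes were, and none at 640, where 0.138% were and the 6 changes lay between -0.15 and 0.09. At an unadjusted p under 0.05 the counts were 0 and 0 as well. The replicate number was also fitted as a block. At 300 the deviations of same-numbered samples correlated between times at 0.468 and 0.435 for replicates 1 and 2, but 0.11 for replicate 3. Unlike numbers correlated as well (0.473 for replicate 1 at 300 of 48 h with replicate 3 at 640 of 24 h), and no label states a pairing. For time at 300 the block gave 103 calls over all genes in place of 37, or 285 in a fit of the arrays at 300 alone. Again 0 of the 6 were called, with the lowest adjusted p of the 6 at 0.126 (limma, Slc16a7, arrays at 300 alone). Of 7 fibroblast markers, Dcn and Pdgfrb were higher at 48 h than at 24 h at both osmolalities (called by the same test), and Col1a1 at 640. C1qa was also called higher at 48 h at 300. The mean log2 level of the 7 fibroblast markers lay between 8.36 and 8.94 at 48 h and between 7.63 and 7.92 at 24 h at 300, and between 8.26 and 8.61 at 48 h and between 7.51 and 7.89 at 24 h at 640. Their part in the changes over time was not tested.

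The change between osmolalities was also compared between times. The difference (48 h minus 24 h) was -0.22 ± 0.241 SE for Slc16a1, -0.21 ± 0.252 SE for Slc16a3 and -0.36 ± 0.338 SE for Slc16a7, each with limma adjusted p = 1. Over all genes 0.0138% were called for this difference, and 0 of the 6, with 0 at an unadjusted p under 0.05.

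The genes whose profile over the 12 arrays was nearest to that of Slc16a6 were Cyp1a1, Cyp1b1, Cdkn3, Tm7sf3 and Serpina1. Nearness was the root-mean-square difference between log2 profiles, each centred on the gene's own mean, over 14442 genes with a standard symbol. It was 0.157 for both Cyp1a1 and Cyp1b1, cytochromes P450 best known as targets of the aryl hydrocarbon receptor, 0.204 for Cdkn3, a phosphatase of cyclin-dependent kinases, 0.218 for Tm7sf3, a membrane protein, and 0.224 for Serpina1, the protease inhibitor alpha-1 antitrypsin. Slc16a6 itself varied about its own mean by 0.548. The same 5 genes were nearest when arrays were only centred on their medians. Since they were found by likeness to a gene chosen for its rise, their values are a description.

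Cyp1b1 had group means of 6.40 ± 0.0641 at 300 and 5.67 ± 0.145 at 640 after 48 h (SD, n = 3 each), and 7.10 ± 0.109 at 300 and 5.84 ± 0.179 at 640 after 24 h. Its log2 differences between osmolalities, 0.73 at 48 h and 1.26 at 24 h, stand beside 0.68 and 1.29 for Slc16a6. Cyp1a1 had 7.31 ± 0.260 at 300 and 6.43 ± 0.0431 at 640 after 48 h, and 7.75 ± 0.0881 at 300 and 6.67 ± 0.179 at 640 after 24 h, which gives differences of 0.88 and 1.08. All 5 genes had their highest group mean at 300 after 24 h and the next at 300 after 48 h. Of the other 6 family genes Slc16a3 and Slc16a1 came closest to Slc16a6, with root-mean-square differences of 0.456 and 0.458, against a median of 0.600 over all genes. They ranked 619 and 635 among 14505 genes, and a flat profile would lie at 0.548, so the likeness was slight. Slc16a14, a family gene outside the list, stood at 0.451. Slc16a11 stood at 0.631 and Slc16a7 at 0.623.

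**Figure D3:**
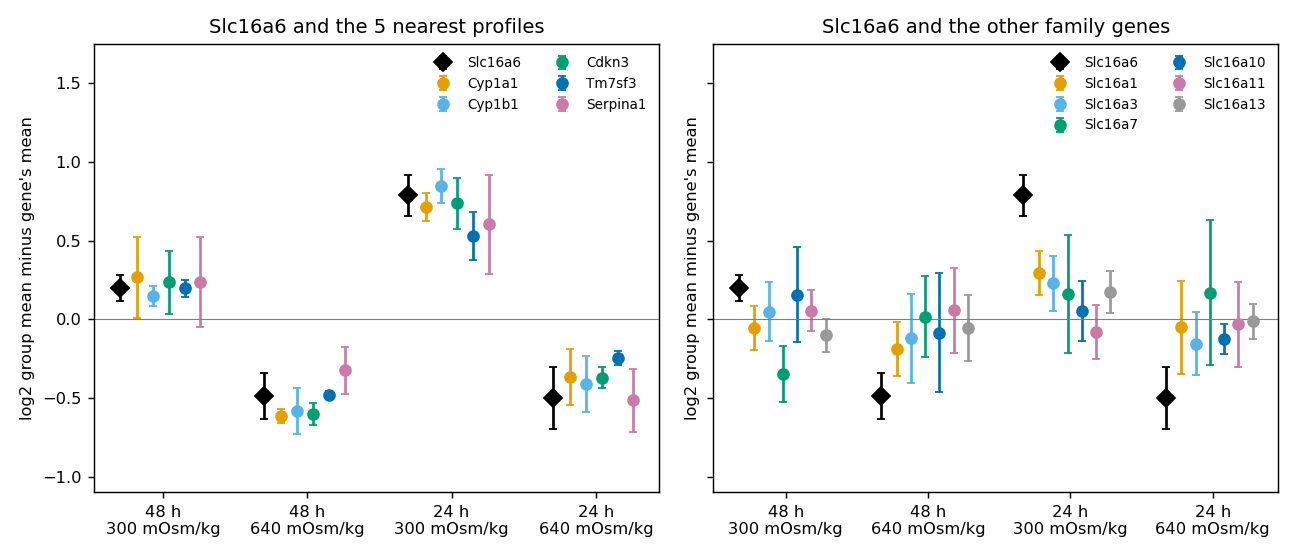
Group means of log2 level minus the gene's mean over the 4 groups, with the SD of 3 arrays as bars, for Slc16a6 (black diamonds) beside its 5 nearest genes (left) and beside the other 6 measured family genes (right). The 5 nearest genes stand with Slc16a6 above 0 at 300 mOsm/kg and below 0 at 640 mOsm/kg at both times, while the other family genes lie closer to 0 than Slc16a6 in both groups at 640 mOsm/kg and at 300 mOsm/kg after 24 h.

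Genes that work with these carriers were examined as 8 lists with 68 measured genes. At 48 h 0 of the 68 were called higher and 5 lower, 7.35% of the list genes against 1.9% of all genes (1.38% lower). At 24 h 0 were called, against 0.669% of all genes. The lists were chosen with earlier results of these data known, so these shares are a description and no test of the lists. The median log2 change over the 68 was -0.10 at 48 h and -0.05 at 24 h.

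Among the 3 ancillary glycoproteins none passed the test. Emb, which encodes embigin, had log2 levels of 8.98, 9.21 and 9.03 at 300 and 8.72, 8.94 and 8.92 at 640 after 48 h. After 24 h Emb had 9.57, 9.64 and 9.81 at 300 and 9.23, 9.36 and 9.14 at 640. The groups were apart at both times, although narrowly at 48 h, as for 7.15% of all genes in that direction at 48 h and 4.46% at 24 h. The log2 changes of Emb were 0.21 ± 0.139 SE (limma adjusted p = 0.886) and 0.43 ± 0.139 SE (adjusted p = 0.311). Nptn, also of this list, had -0.13 at 48 h and -0.04 at 24 h. Its arrays at 48 h were apart in the other direction, as for 7.85% of all genes. Bsg, which encodes basigin, the partner of MCT1 and MCT4, had changes of -0.17 at 48 h and -0.18 at 24 h, with adjusted p = 1 at each. The sodium-coupled monocarboxylate transporters Slc5a8 and Slc5a12, which reabsorb lactate in the proximal tubule, had changes between -0.07 and 0.13, and neither passed. Their group means lay between 3.80 and 4.13, below the median of 6.05 over all probe sets of an array. Whether either gene was expressed was not tested.

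Of 19 genes of lactate and pyruvate metabolism, 1 was called lower at 48 h and 0 were called at 24 h. It was Pdk4, a kinase that switches off the pyruvate dehydrogenase complex. Pdk4 had log2 levels of 5.76, 5.77 and 5.69 at 300 and 6.37, 6.57 and 6.46 at 640 after 48 h. The groups were apart, as for 7.85% of all genes in that direction. Its log2 change was -0.73 ± 0.153 SE at 48 h (limma adjusted p = 0.0232, but 0.494 on the deposited values, and 0.0594 to 0.112 when any 1 of the 6 arrays at 48 h was left out) and -0.06 at 24 h (adjusted p = 1). Pdk1, another such kinase, went the other way, with 0.40 at 48 h (limma adjusted p = 0.26) and 0.50 at 24 h (adjusted p = 0.20). Pdha1, a subunit gene of the complex, had -0.69 at 48 h (adjusted p = 0.135) and -0.52 at 24 h (adjusted p = 0.578). Neither Pdk1 nor Pdha1 passed. The lactate dehydrogenase genes Ldha and Ldhb had -0.00 and 0.38 at 48 h and -0.07 and 0.23 at 24 h, and did not pass.

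Taurine, an organic osmolyte of the medulla that the human SLC16A6 protein is known to carry, was represented by 6 measured genes. Of these, 2 were called lower at 48 h and 0 were called at 24 h. Cdo1, the cysteine dioxygenase that begins taurine synthesis, had log2 levels of 6.19, 6.75 and 6.14 at 300 and 7.42, 8.01 and 7.45 at 640 after 48 h. The groups did not overlap, as for 7.85% of all genes in that direction, and the log2 change was -1.27 ± 0.193 SE (limma adjusted p = 0.00222, and 0.0407 on the deposited values). After 24 h, when the arrays were also apart as for 5.4% of all genes in that direction, Cdo1 had 6.22, 6.42 and 6.20 at 300 and 7.11, 7.18 and 7.13 at 640, a change of -0.86 that did not pass (adjusted p = 0.0662). Slc6a6, the taurine transporter, had log2 levels of 9.70, 9.37 and 9.31 at 300 and 10.39, 10.34 and 10.74 at 640 after 48 h, also without overlap. Its log2 change was -1.03 ± 0.222 SE at 48 h (limma adjusted p = 0.0265, but 0.120 on the deposited values, and the call was lost when any 1 of 5 of the 6 arrays was left out, up to 0.139 without replicate 3 at 300) and -0.71 at 24 h (adjusted p = 0.275).

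Of 11 measured regulators linked to these transporter genes, 2 were called lower at 48 h and 0 were called at 24 h. Hif1a, the hypoxia-inducible factor subunit for which Slc16a3 is a known target, had log2 levels of 11.26, 10.79 and 10.94 at 300 and 11.62, 11.57 and 12.03 at 640 after 48 h. Its arrays did not overlap, as for 7.85% of all genes in that direction, and its log2 change was -0.74 ± 0.166 SE at 48 h (limma adjusted p = 0.0336) and -0.35 at 24 h (adjusted p = 0.859). Ppargc1a, a coactivator of oxidative metabolism, had log2 levels of 4.78, 4.98 and 5.23 at 300 and 5.74, 5.61 and 5.88 at 640 after 48 h, also apart. Its log2 change was -0.75 ± 0.178 SE at 48 h (adjusted p = 0.0497) and -0.34 at 24 h (adjusted p = 0.959). Neither call held on the deposited values (adjusted p = 0.245 for Hif1a and 0.547 for Ppargc1a), nor in the arrays at 48 h alone (adjusted p = 0.108 and 0.0601). The call for Hif1a was lost when any 1 of 4 of the 6 arrays was left out (adjusted p up to 0.182, without replicate 2 at 300), and that for Ppargc1a when any 1 of the 6 was (up to 0.206, without replicate 1 at 300). Nfat5, which drives osmolyte genes in hyperosmotic medium, had -0.21 at both times and did not pass.

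The other 3 lists held no called gene at either time. Among 5 ketone body genes the mitochondrial thiolase Acat1 had a log2 change of 0.34 at 48 h and 0.18 at 24 h, and the dehydrogenase Bdh2 0.35 and 0.36. Among 9 carnitine and creatine genes Ckmt1, the mitochondrial creatine kinase, had -0.81 at 48 h (limma adjusted p = 0.0624) and -0.33 at 24 h. Gatm, the first enzyme of creatine synthesis, had 0.32 at 48 h and 0.66 at 24 h (adjusted p = 0.124). Among 13 genes of aromatic amino acid and thyroid hormone transport and action the receptor gene Thrb had -0.64 at 48 h (adjusted p = 0.0878) and -0.56 at 24 h, and the deiodinase gene Dio2 had -0.61 and 0.13.

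**Figure D4:**
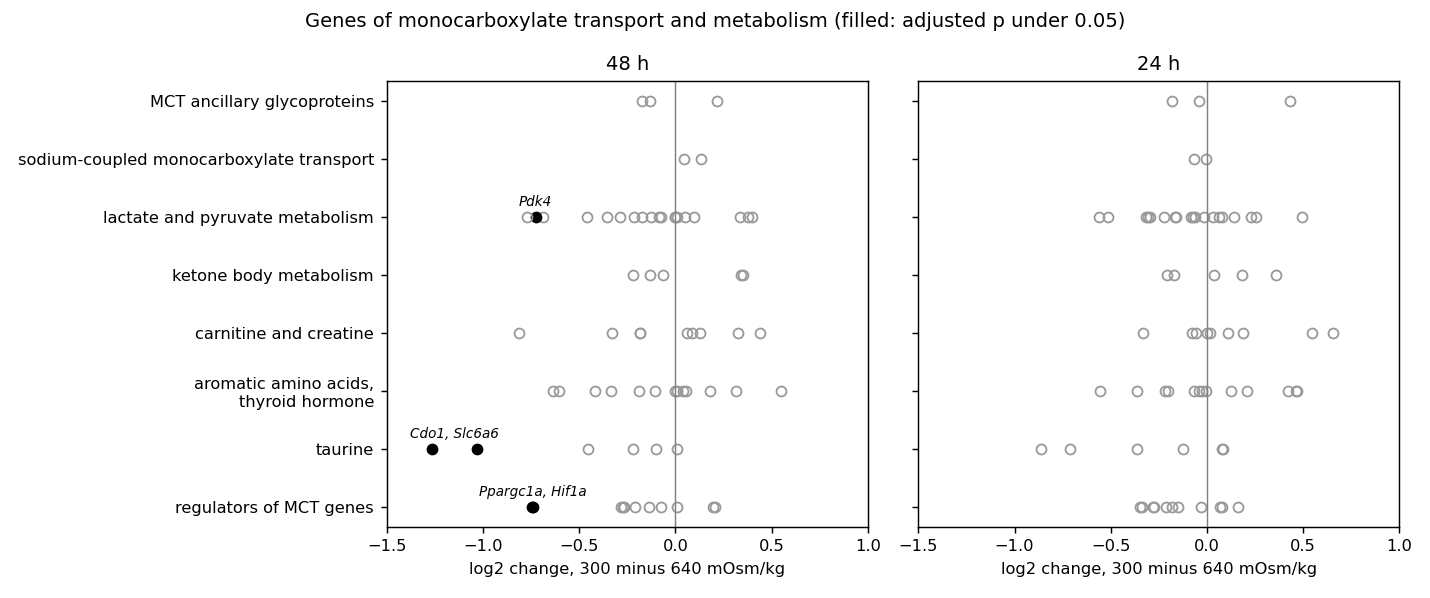
Log2 change at 300 against 640 mOsm/kg at 48 h (left) and 24 h (right) for each measured gene of the 8 lists, 1 row per list; filled points passed at an adjusted p under 0.05. The 5 filled points are Cdo1, Slc6a6, Hif1a, Ppargc1a and Pdk4, all lower at 300 mOsm/kg at 48 h.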

How the data were processed

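Total RNA of 12 samples was hybridised, 1 array each. The authors deposited log2 intensities per probe set, made by RMA with Affymetrix Power Tools per the submitters' processing notes, and no version is stated. The 27596 probe sets held values from 1.12 to 13.9. Detection calls were not used, and depth is not defined for arrays; their number limits the precision. Groups and replicate numbers came from the sample titles, whose osmolalities are used where short codes in the descriptions differ.

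In the platform's annotation 15310 probe sets carry a single symbol, 323 carry more and 11963 carry none. The probe set with the highest mean stood for its gene, giving 14506 genes. The deposited log2 values differ in scale between arrays and were quantile-normalized over all probe sets. limma 3.58.1 in R 4.3.3 (lmFit, eBayes) fitted the 4 group means to the 12 arrays, leaving 8 degrees of freedom for the spread. The call threshold was 0.05 for p adjusted by Benjamini-Hochberg over the 14506 genes. The 5 contrasts were 300 minus 640 at each time, the difference of these, and 48 h minus 24 h at 300 and at 640. SE is limma's moderated standard error, and SD is over 3 arrays. The members, lists and tests were chosen with earlier results of these data known. Named were the measured members, the 5 genes nearest to Slc16a6 (no other member was called), and from each list the called genes or the 2 with the smallest p. Ldha, Ldhb, Pdk1, Pdha1, Nptn and Nfat5 were added after their values were seen. Slc5a8 and Slc5a12 are all of their list. The fit was tested on simulated data with 200 changed genes and independent noise on each array. Alternatives were the deposited log2 values, median centring, cyclic loess, dropping the 30% of genes with the lowest means, a trended and robust eBayes, averaged probe sets per gene, only the groups compared, the replicate block and leaving out each array. Same-numbered arrays at 300 correlated in their deviations from the group means between times (0.468, 0.435 and 0.11 for replicates 1, 2 and 3), so the numbers were taken to pair these samples, a hint from the data and not from the labels. Leaving out both arrays with a low median at 24 h, and the replicate block in the arrays at 300 alone, were added after seeing the data.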

Additional observations from a re-analysis of the deposited data

How the results depend on the processing

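The count of family genes other than Slc16a6 that passed was 0 in all 5 contrasts under every setting tried, including each array left out (0 to 0). The count over all genes depended on the scale of the arrays. On the deposited values limma called 104 genes at 48 h and 13 at 24 h between osmolalities, and 0 for each of the other 3 contrasts (the difference, time at 300, time at 640), with 64, 3369 and 4077 at an unadjusted p under 0.05 in that order. The median change over all genes was then -0.38 for time at 300 and -0.41 at 640. That shift turned the sign of the uncalled changes over time of Slc16a10 (-0.31 at 300 and -0.38 at 640), Slc16a11 (-0.25 and -0.34) and Slc16a3 (-0.29 at 640), and it moved those of Slc16a6 to -1.01 at 300 and -0.43 at 640. The change of Slc16a11 at 48 h, next to 0, was 0.023 on deposited values, 0.0044 on centred arrays and 0.0030 after cyclic loess. The cause of the last was not tested. In fits of only the groups compared the counts were 15 at 24 h, 22 for time at 300 and 9 for time at 640. Without the 2 arrays of low median, 16 were called at 24 h. Leaving out 1 array gave 172 to 300 calls at 48 h, with 179 and 182 without replicates 2 and 3 at 300 and 172 without replicate 1 at 640. It gave 31 to 98 at 24 h, with 64, 61 and 33 without replicates 1, 2 and 3 at 300, and 31 and 45 without replicates 1 and 3 at 640. The difference between times had 0 to 3 calls (0 without replicate 3 at 300 of 24 h, 1 without replicate 1 at 640 of 48 h). Time at 300 had 8 to 41, with 8, 12 and 13 without replicates 1, 2 and 3 of 48 h, and 22 and 9 without replicates 2 and 3 of 24 h. Time at 640 had 9 to 20, with 10 and 9 without replicates 1 and 2 of 48 h, and 13, 12 and 11 without replicates 1, 2 and 3 of 24 h. Uncalled changes next to 0 turned sign when 1 array was left out. Between osmolalities Slc16a11 ran from -0.089 to 0.15 and Slc16a13 from -0.14 to 0.067 at 48 h, and Slc16a7 from -0.23 to 0.23 and Slc16a11 from -0.21 to 0.033 at 24 h. For the difference between times Slc16a10 ran from -0.12 to 0.26 and Slc16a11 from -0.038 to 0.21. For time at 300 Slc16a10 ran from -0.041 to 0.26. For time at 640 Slc16a1 ran from -0.29 to 0.0019, Slc16a3 from -0.11 to 0.18, Slc16a7 from -0.37 to 0.087, Slc16a10 from -0.15 to 0.22, Slc16a11 from -0.068 to 0.18 and Slc16a13 from -0.16 to 0.048.

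Between osmolalities, samples of the same replicate number did not all deviate together. At 48 h the correlations of their deviations from the group means, for replicates 1, 2 and 3, were -0.249, 0.788 and -0.227, and at 24 h -0.145, 0.833 and -0.169. Replicate 1 at 300 correlated with replicate 3 at 640 (0.781 at 48 h and 0.797 at 24 h), and replicate 3 at 300 with replicate 1 at 640 (0.631 and 0.596), so part of the spread within groups was shared between osmolalities. What these arrays share is not stated in the labels, no fit was made with such pairs, and smaller changes within them were not tested. Between times at 640 the same-number correlations were 0.0264, 0.466 and 0.409. With the replicate block 179 genes were called at 24 h, 7 for the difference between times, 103 for time at 300 and 57 for time at 640, and 285 for time at 300 in the arrays at 300 alone. No family gene other than Slc16a6 was called with the block. The other settings left each count within 1.5 times.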

Other observations

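Further genes of the family outside the list had probe sets of their own, Slc16a4, Slc16a8 and Slc16a14, and limma called 0 of these 3 between osmolalities at either time, with 0 at an unadjusted p under 0.05. Slc16a4 had group means of 5.44 ± 0.0247 at 300 and 5.82 ± 0.272 at 640 after 48 h (SD, n = 3 each), with arrays that did not overlap, as for 7.85% of all genes, and 5.17 ± 0.399 at 300 and 5.46 ± 0.182 at 640 after 24 h. Its log2 changes were -0.38 ± 0.199 SE (limma adjusted p = 0.673, unadjusted p = 0.0756) and -0.29 ± 0.199 SE (adjusted p = 1), opposite in sign to those of Slc16a6. Slc16a14 had log2 changes of 0.12 at 48 h and 0.43 at 24 h, and Slc16a8 had -0.02 and -0.40. The values of Slc16a8 at 24 h had SDs of 0.553 at 300 and 0.407 at 640, and the groups overlapped.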
